A study of Mus musculus with 6 samples.

Results

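The genes described here are 36 that encode the core machinery of autophagy, chosen by gene symbol from the 21853 genes of the deposited table. All 36 were found, and all passed the filter of a mean of at least 1 FPKM that left 10870 genes for testing. The list was drawn up with earlier results of these data known. FPKM divides the fragments of a gene by its transcript length and by the depth of its library, so levels of different genes can be set side by side. The cells were MEF, fibroblasts cultured from mouse embryos, of the C57BL/6J strain with a label age of 12 days. They fell into cells given red clover extract (RCE, n = 3) and cells given water (control, n = 3). Cells of both groups carried a knockout of xCT, the cystine importer encoded by Slc7a11, and no xCT wild-type cells were compared here. The sources used here do not give the dose, the length of exposure or whether replicates came from separate cultures. A p-value therefore reflects how far these 6 libraries vary, and that variation may be technical.

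Autophagy encloses part of the cytoplasm in a double membrane, the autophagosome, and delivers it to the lysosome. The ULK kinase complex starts the process, a phosphatidylinositol 3-kinase (PI3K) complex marks the site with the lipid PI3P, and WIPI proteins, ATG2 and ATG9 bring in lipid. A pair of ubiquitin-like conjugation systems then attaches the small ATG8 proteins (LC3 and GABARAP) to the membrane, where receptors that bind both cargo and ATG8 dock. In ferroptosis, an iron-dependent form of cell death to which loss of xCT predisposes cells, selective autophagy of ferritin can raise the pool of labile iron. Much of the control of autophagy acts on proteins, through phosphorylation and lipid conjugation, which messenger RNA levels do not measure.

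Depth was similar between libraries, at 45650000, 58950000 and 56050000 fragments in RCE replicates 1, 2 and 3 and 54150000, 49450000 and 49350000 in control replicates 1, 2 and 3, recovered from the steps between low values. At this depth 1 fragment on the longest transcript of Atg4d, the member with the lowest level, was worth 0.00285 to 0.00368 FPKM, so its levels rested on about 335 to 497 fragments per library. Atg10, whose longest transcript is shorter, rested on about 294 to 463. Both figures take the longest transcript and would be lower for a shorter one. Slc7a11 was at 0.007 to 0.017 FPKM in RCE and 0.013 to 0.037 FPKM in control libraries. All 10 fibroblast markers of a fixed list averaged at least 1 FPKM, and their summed level was 5521 to 5896 FPKM with the extract and 6073 to 6477 FPKM in control. Of the markers of other lineages, 2 of 6 for macrophages averaged at least 1 FPKM, with 1 of 5 for epithelium, 1 of 4 for endothelium, 0 of 5 for erythroid cells, 2 of 4 for muscle (Des and Acta1) and 1 of 4 for neurons (Tubb3). The macrophage markers summed to 11.2 to 12.7 FPKM in RCE and 15.3 to 16.4 FPKM in control libraries, and the muscle markers to 126 to 146 and 116 to 135 FPKM. The macrophage markers that averaged at least 1 FPKM were Lyz2, at 7.83 to 11.7 FPKM over the 6 libraries, and Cd68, at 2.49 to 3.76 FPKM. For epithelium it was Krt18, at 1.14 to 2.45 FPKM, and for endothelium Kdr, at 1.06 to 1.33 FPKM. Other markers of the lists were lower, such as Ptprc (macrophages) at no more than 0.079 FPKM, Epcam (epithelium) at no more than 0.083 FPKM and Myod1 (muscle) at 0 in every library. The libraries numbered 1 in both groups stood apart from the others, and this touches several of the genes below.

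With the extract the transcripts of the core machinery changed little. In limma with Benjamini-Hochberg adjustment, 1 of 36 genes passed an adjusted p of 0.05: Atg7 fell, and 0 rose. Over all 10870 tested genes 24.3% passed, 17.6% upward and 6.77% downward. At an unadjusted p under 0.05 there were 3 members, Atg7, Gabarap and Map1lc3b, all lower, against 38% of all genes in either direction. The median change of the 36 was -0.00026, beside 0.08 for all tested genes, on the log2(FPKM + 1) scale as RCE minus control, the scale of every log2 change below. The 95% interval of the change lay within 0.5 of 0 for 34 of 36 members (94.4%, and 86.1% of all tested genes), where 0.5 is a change of 41.4% in FPKM + 1. The exceptions were Ulk1, with an interval of -0.25 to 0.51, and Gabarapl2, with -0.77 to 0.40.

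Calls were more frequent, for the members and for all genes, once libraries of the same number were compared with each other. What the numbers stand for is not given in the sources used here, and some libraries of different numbers correlated more closely than namesakes did. With replicate number as a block, 3 members were higher (Ulk1, Ambra1 and Atg10) and 10 lower (Wipi1, Atg3, Atg7, Optn, Fundc1 and the 5 ATG8 genes), where 62.5% of all genes were called, 46.6% higher and 15.9% lower. Without both libraries numbered 1, 5 members were higher (Ulk1, Atg4a, Atg4c, Atg5 and Atg10) and 7 lower (Wipi1, Atg3, Atg7, Map1lc3b, Gabarap, Gabarapl2 and Tax1bp1), beside 53.8% of all genes called, 40.1% higher and 13.6% lower. Values of the groups did not overlap for 8 of 36 members (22.2%, where 42.2% of all genes did not overlap). Of these, Ulk2, Pik3r4 and Ambra1 were higher (31.2% of all genes) and Atg2b, Atg7, Map1lc3b, Gabarap and Tax1bp1 lower with the extract (10.9%). Members were lower in all 3 pairs for 12 of 36 and higher for 8, beside 20.6% and 56.5% of all genes. The direction of small changes rested on the scaling. With median-of-ratios scaling, which sets the median change of all genes to 0.00072, the median of the 36 was -0.08 and 7 were called lower and 0 higher, where 18.5% of all genes were called, 10% lower and 8.5% higher. With the block as well, 18 were called lower and 1 higher (Atg10), beside 54% of all genes, 27.6% lower and 26.4% higher. With quantile normalization 1 member was called, Atg7, beside 15.1% of all genes, 7.85% lower and 7.29% higher.

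**Figure D1:**
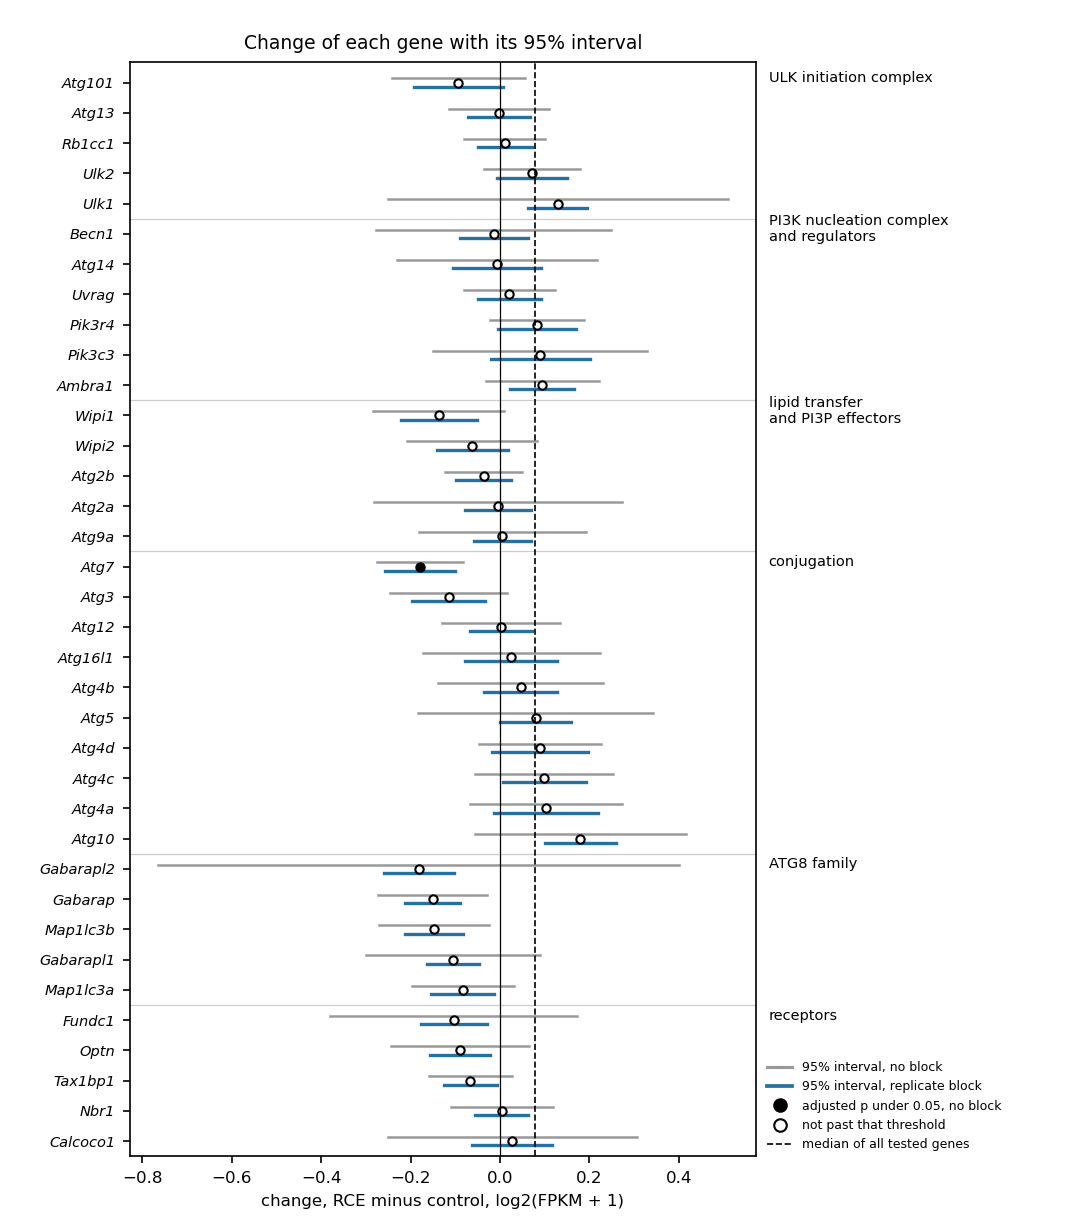
Change of each of the 36 genes (x axis: RCE minus control, log2(FPKM + 1)), grouped by role, with 95% intervals without a block (grey) and with replicate number as a block (blue); the dashed line is the median of all tested genes. The filled point, Atg7 at -0.18, is the gene past the threshold without a block, and the 5 ATG8 genes lie left of 0.

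Atg7 encodes the E1-like enzyme that activates both ATG12 and the ATG8 proteins for conjugation. It lies on chromosome 6, 114643097 to 114860614 on the mm10 build (ENSMUSG00000030314). Its level was 7.32, 7.59 and 7.49 FPKM in RCE replicates 1, 2 and 3, against 8.83, 8.40 and 8.54 FPKM in control replicates 1, 2 and 3. Every RCE library was below every control library. The mean was 7.47 ± 0.14 FPKM with the extract and 8.59 ± 0.22 FPKM in control (SD, n = 3 each), so that the level fell by 13.1%. The log2 change was -0.18 (SE 0.04, 95% interval -0.28 to -0.083, limma adjusted p = 0.0226). The call ended without RCE replicate 2 (adjusted p = 0.0823), RCE replicate 3 (0.0798), control replicate 1 (0.0543), control replicate 2 (0.0608) and control replicate 3 (0.0775), with changes of -0.19 to -0.16.

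None of the other 9 conjugation genes passed the threshold. Atg3, the E2-like enzyme that hands ATG8 proteins to phosphatidylethanolamine, was at 26.5, 28.3 and 26.5 FPKM in RCE and 28.0, 29.4 and 30.9 FPKM in control replicates 1, 2 and 3. It was lower in each of the 3 pairs, with groups that overlapped slightly (log2 change -0.12, adjusted p = 0.172, and 0.0203 with the block). Atg10, the E2-like enzyme for ATG12, was at 4.06, 4.96 and 5.19 FPKM in RCE and 3.55, 4.31 and 4.31 FPKM in control replicates 1, 2 and 3. It was higher in each pair while the groups overlapped through replicate 1 (0.18, adjusted p = 0.231, and 0.00256 with the block), with a change of 0.11 after median-of-ratios scaling and 0.077 after quantile normalization. Atg5, which ATG12 is joined to, was at 9.45, 11.8 and 12.2 FPKM in RCE and 9.31, 11.3 and 10.9 FPKM in control replicates 1, 2 and 3. Each RCE library was above the control library of its number, the libraries numbered 1 were the lowest of both groups, and the change was 0.08 (SE 0.11, 95% interval -0.18 to 0.34, adjusted p = 0.644). Atg12 (0.0012) and Atg16l1 (0.03), the partners of ATG5 in the complex that directs conjugation, had means 0.0083% and 1.76% above control, and both changes were negative with median-of-ratios scaling (-0.08 and -0.053).

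Upstream sequences were read from the RefSeq promoter table (GRCm38.p6), which held 30 of the 36 genes, as the 250 bases before the start. The motif CACGTG, the core of the element bound by the TFEB family of autophagy and lysosome regulators, is its own reverse complement. It was present for 3 of the 30 members (10%), against 888 of 8569 tested genes with a window (10.4%), so members held it at about the background share. Its longer form, with GT before CACGTG and AC after it, was found in 0 members and 0.63% of tested genes, and the FOXO-type motif GTAAACA, read on both strands, in 0 members and 2.58%. The shorter ACGTG, which lies within CACGTG and is shared with the hypoxia response element, was present on either strand for 13 of 30 members (43.3%), against 26% of tested genes. Windows of members had a median of 58.2% G and C, against 52.4% for the windows of all 27025 genes, tested here or not. The median of tested genes alone was not computed. The part of base content in the motif shares was not tested. A gene with several windows was counted where any of them held the motif. The members with CACGTG were all conjugation genes, Atg7, Atg5 and Atg3, and are shown because their windows hold it. Atg7 is also the gene that fell, while Atg5 and Atg3 were chosen for the motif after their windows were read. The capitals mark CACGTG, bases inside annotated exons are left out, and all are on the plus strand of GRCm38.p6.
Atg7, chr6:114670846-114671095: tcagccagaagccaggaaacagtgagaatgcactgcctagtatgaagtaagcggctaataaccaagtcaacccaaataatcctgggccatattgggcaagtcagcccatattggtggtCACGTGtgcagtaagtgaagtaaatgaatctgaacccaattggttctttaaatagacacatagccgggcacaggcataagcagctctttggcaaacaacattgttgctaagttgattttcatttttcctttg
Atg5, chr10:44268089-44268338: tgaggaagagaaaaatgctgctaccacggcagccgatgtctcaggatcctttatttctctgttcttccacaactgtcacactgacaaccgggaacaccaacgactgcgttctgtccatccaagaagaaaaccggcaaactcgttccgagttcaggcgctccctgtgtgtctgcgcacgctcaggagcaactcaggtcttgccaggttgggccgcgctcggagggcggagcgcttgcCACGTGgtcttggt
Atg3, chr16:45158707-45158784: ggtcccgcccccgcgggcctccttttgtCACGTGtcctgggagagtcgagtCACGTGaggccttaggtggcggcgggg
The window of Atg7 begins 27749 bases inside the gene as GENCODE M21 annotates it, in an intron, so it precedes an internal start and not the outermost one. CACGTG begins 132 bases before the RefSeq start for Atg7, 14 for Atg5, and 94 and 71 for the 2 copies of Atg3, whose RefSeq start lies beyond the end of the stretch shown because exonic bases between them are left out. The 3 genes with the motif had changes of -0.18 (Atg7), 0.08 (Atg5) and -0.12 (Atg3). These matches are descriptions of the letters, and binding was not measured.

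The ATG4 proteases process ATG8 proteins before conjugation and release them from membranes afterwards. Means of all 4 genes were above control, by 8.97% for Atg4a, 3.79% for Atg4b, 9.02% for Atg4c and 11.8% for Atg4d, and none passed the threshold (adjusted p of 0.298 to 0.709). Those directions rested on the scaling: Atg4b was at -0.033 with median-of-ratios scaling, and Atg4b, Atg4c and Atg4d at -0.016, -0.0027 and -0.015 with quantile normalization. Atg4c and Atg4d were higher in each of the 3 pairs. Atg4d had the lowest level of the 36, at 1.23, 1.32 and 1.49 FPKM in RCE and 1.11, 1.30 and 1.21 FPKM in control replicates 1, 2 and 3. Atg4a has an annotated copy, Atg4a-ps, that could share reads with it. Of the 10 conjugation genes, 1 fell and 0 rose, and the median change was 0.06.

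All 5 members of the ATG8 family were lower with the extract on average. These small ubiquitin-like proteins are fixed to the autophagosome membrane and bind cargo receptors. All 5 genes were lower with the extract in each of the 3 pairs, a pattern found in 20.6% of all tested genes. None passed the threshold without the block in limma (0 of 5, beside 6.77% of all genes called lower). At an unadjusted p under 0.05 there were 2 of 5, beside 38% of all genes in either direction. All 5 were called lower with the block, beside 15.9% of all genes called lower and 46.6% higher. With median-of-ratios scaling 3 of 5 were called lower, beside 10% of all genes, and with quantile normalization 0, beside 7.85%. The median change was -0.15, and it stayed negative for all 5 genes with both scalings (medians -0.23 and -0.093). With either scaling the changes of all 5 lipid transfer genes and all 5 receptors were negative too.

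Gabarap (chromosome 11, 69991143 to 69994951) had the highest level of the 36, above 98.4% of tested genes. It was at 271, 262 and 253 FPKM in RCE replicates 1, 2 and 3, against 299.6, 287 and 285 FPKM in control replicates 1, 2 and 3. Every RCE library lay below every control library, and the mean was 261.9 ± 8.89 FPKM with the extract and 291 ± 7.67 FPKM in control (SD, n = 3 each). The log2 change was -0.15 (SE 0.05, adjusted p = 0.0776, and 0.00164 with the block).

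Map1lc3b (chromosome 8, 121590361 to 121598760) encodes LC3B, the protein whose lipid-bound form is used to count autophagosomes. It was at 33.1, 31.2 and 31.9 FPKM in RCE and 37.4, 35.6 and 34.1 FPKM in control replicates 1, 2 and 3, again without overlap. The change was -0.15 (SE 0.05, 95% interval -0.27 to -0.024, adjusted p = 0.0845, and 0.00231 with the block). Map1lc3a, which encodes LC3A, was at 61.7, 61.5 and 65.2 FPKM in RCE and 64.9, 68.6 and 66.2 FPKM in control replicates 1, 2 and 3. Those groups overlapped by a narrow margin (-0.08, adjusted p = 0.251, and 0.0435 with the block).

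Gabarapl1 was at 69.9, 77.9 and 83.0 FPKM in RCE and 77.0, 83.5 and 87.9 FPKM in control replicates 1, 2 and 3, so that the groups overlapped while each RCE library was below the control library of its number (-0.11, adjusted p = 0.391, and 0.00681 with the block). Gabarapl2, which encodes GATE-16, was at 11.6, 17.6 and 18.7 FPKM in RCE and 12.8, 21.4 and 20.7 FPKM in control replicates 1, 2 and 3. Both libraries numbered 1 were far below the rest. The change of Gabarapl2 was -0.18 with an SE of 0.24 (adjusted p = 0.63, and 0.00218 with the block), and without RCE replicate 1 it was 0.02.

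The summed level of the 5 ATG8 genes varied less between replicates, relative to its mean, than its largest members did. It was 447, 449.8 and 452 FPKM in RCE replicates 1, 2 and 3, against 492, 497 and 494 FPKM in control replicates 1, 2 and 3. Relative to the control library of the same number, the sum differed by -9.03%, -9.42% and -8.53% in pairs 1, 2 and 3. Gabarap made up 58.2 ± 2.29% of the sum with the extract and 58.9 ± 1.8% in control (SD, n = 3 each), and Map1lc3b 7.14 ± 0.24% and 7.22 ± 0.36%. The shares of the 5 genes differed between groups by less than their spread between replicates, except that of Map1lc3a, at 13.96 ± 0.41% with the extract and 13.5 ± 0.32% in control. Sums of the other roles lay closer to control, at 1.94% above it for the ULK complex, 2.76% above it for the PI3K complex, -0.51% for conjugation, -2.77% for the receptors and -4.38% for the lipid transfer genes. The fibroblast and macrophage markers, given above, also had lower summed levels in every RCE library, and their part in these differences was not tested.

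**Figure D2:**
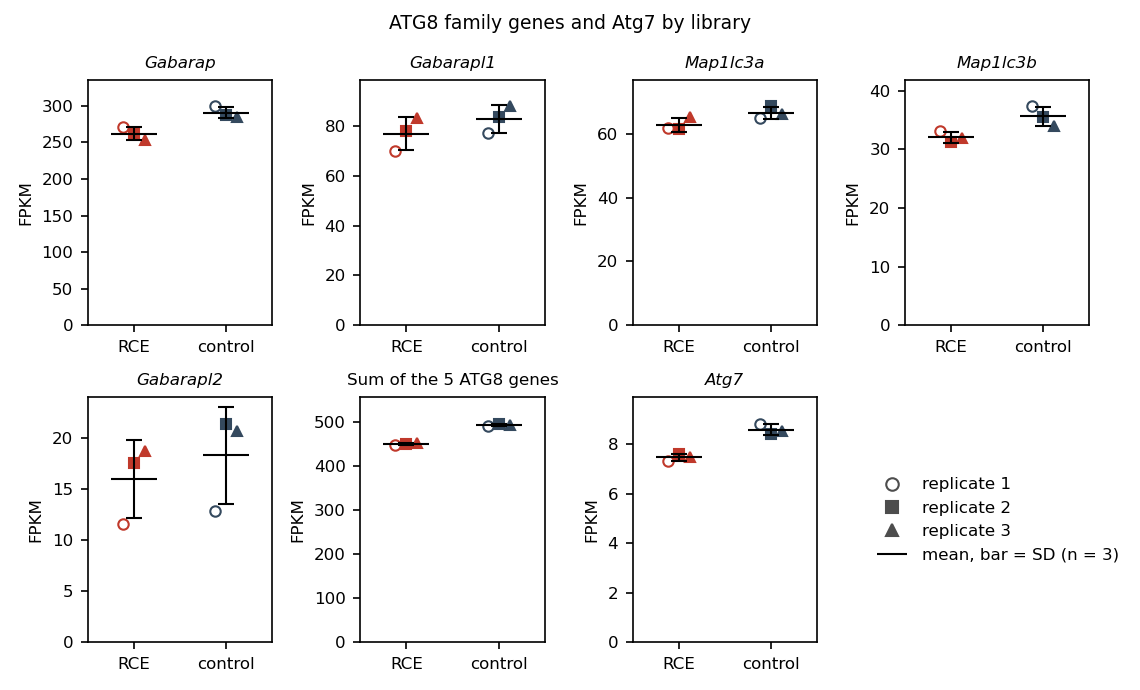
Level in FPKM (y axis, from 0) of the 5 ATG8 genes, of their sum and of Atg7 in RCE (left) and control (right) libraries; points are libraries, marked by replicate number, and bars are the mean and SD (n = 3). The sum sits at 447 to 452 FPKM with the extract and 492 to 497 FPKM in control, and Gabarapl2 shows both libraries numbered 1 far below the others.

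In the kinase complex that starts autophagy 0 of 5 genes passed the threshold, and their median change was 0.01. Ulk1 (chromosome 5, 110784488 to 110810097), the kinase that receives signals from mTORC1 and AMPK, was at 15.6, 11.9 and 11.1 FPKM in RCE and 14.2, 10.6 and 10.3 FPKM in control replicates 1, 2 and 3. The libraries numbered 1 were the highest of both groups, and each RCE library was above the control library of its number. The change was 0.13 (SE 0.16, adjusted p = 0.599, and 0.00494 with the block, where Ulk1 was called higher). With the block and median-of-ratios scaling it was 0.049 and the call ended (adjusted p = 0.192), and it was -0.0077 without RCE replicate 1. Ulk2, its paralogue, was higher without overlap, at 7.06, 7.67 and 7.10 FPKM in RCE and 6.78, 6.89 and 6.94 FPKM in control replicates 1, 2 and 3 (0.07, adjusted p = 0.294), but it was at -0.0041 with median-of-ratios scaling and -0.015 with quantile normalization. Rb1cc1, which encodes the scaffold FIP200, was at 17.2 ± 0.0703 FPKM with the extract and 17.0 ± 0.283 FPKM in control (SD, n = 3 each, 0.01, 95% interval -0.08 to 0.10). Atg13, the adaptor that mTORC1 phosphorylates, was at 8.81 FPKM in RCE and 8.82 FPKM in control (-0.0017, adjusted p = 0.984). Atg101, which stabilises ATG13, was at 9.11 and 9.77 FPKM (-0.09, adjusted p = 0.319).

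In the PI3K complex 0 of 6 genes passed the threshold, and their median change was 0.05. Becn1 (chromosome 11, 101285952 to 101302286), which encodes the subunit Beclin 1, was at 17.6, 21.2 and 22.3 FPKM in RCE and 18.1, 22.3 and 21.2 FPKM in control replicates 1, 2 and 3. The groups overlapped almost fully, with a change of -0.01 (SE 0.11, 95% interval -0.28 to 0.25, adjusted p = 0.945). Ambra1, a regulator of Beclin 1, was higher in every RCE library, at 11.5, 10.5 and 10.3 FPKM against 10.3, 9.95 and 9.79 FPKM in control replicates 1, 2 and 3 (0.09, adjusted p = 0.242, and 0.0275 with the block). With the block and median-of-ratios scaling the change of Ambra1 was 0.016 and the call ended (adjusted p = 0.692). Pik3r4, the regulatory subunit VPS15, was also higher without overlap (0.08, adjusted p = 0.224), but it was at -0.0088 with quantile normalization. The catalytic subunit Pik3c3 was at 5.16 ± 0.71 FPKM with the extract and 4.78 ± 0.44 FPKM in control (SD, n = 3 each, 0.09, limma adjusted p = 0.559). Atg14, which directs the complex to autophagy, and Uvrag, which replaces it in a complex of endosome traffic, had changes of -0.007 and 0.02.

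Among the 5 genes for lipid supply 0 passed the threshold, with a median change of -0.04. Wipi1, a PI3P-binding protein, had the largest difference. It was at 22.1, 23.9 and 22.6 FPKM in RCE and 23.7, 25.1 and 27.0 FPKM in control replicates 1, 2 and 3, lower in each pair with a slight overlap of the groups (-0.14, adjusted p = 0.153, and 0.0125 with the block). Wipi2, which recruits ATG16L1, was at 21.4 and 22.4 FPKM (-0.06, adjusted p = 0.501). The lipid transfer protein Atg2b differed by little but without overlap, at 12.7, 12.8 and 12.8 FPKM in RCE and 13.2, 13.1 and 13.1 FPKM in control replicates 1, 2 and 3 (-0.04, adjusted p = 0.504). Its paralogue Atg2a and the scramblase Atg9a had changes of -0.0043 and 0.0052, and both were highest in the libraries numbered 1.

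Of the 5 cargo receptors 0 passed the threshold, and their median change was -0.07. Tax1bp1, a receptor for ubiquitinated cargo, was the most abundant of the 5, at 40.2, 39.5 and 39.3 FPKM in RCE and 40.9, 41.9 and 41.9 FPKM in control replicates 1, 2 and 3. Every RCE library was below every control library, and the gene did not pass the threshold (-0.07, adjusted p = 0.265, and 0.0526 with the block). Optn, a receptor for mitochondria and bacteria, and Fundc1, a receptor on the outer mitochondrial membrane, were lower in each pair (-0.09 and -0.10, adjusted p = 0.356 and 0.559, and 0.0262 and 0.0217 with the block). Nbr1, which carries aggregates and peroxisomes, was at 34.0 ± 1.16 FPKM with the extract and 33.9 ± 1.05 FPKM in control (SD, n = 3 each, 0.0035, limma adjusted p = 0.967). Calcoco1, a receptor in ER-phagy, had a change of 0.03 (adjusted p = 0.892).

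**Figure D3:**
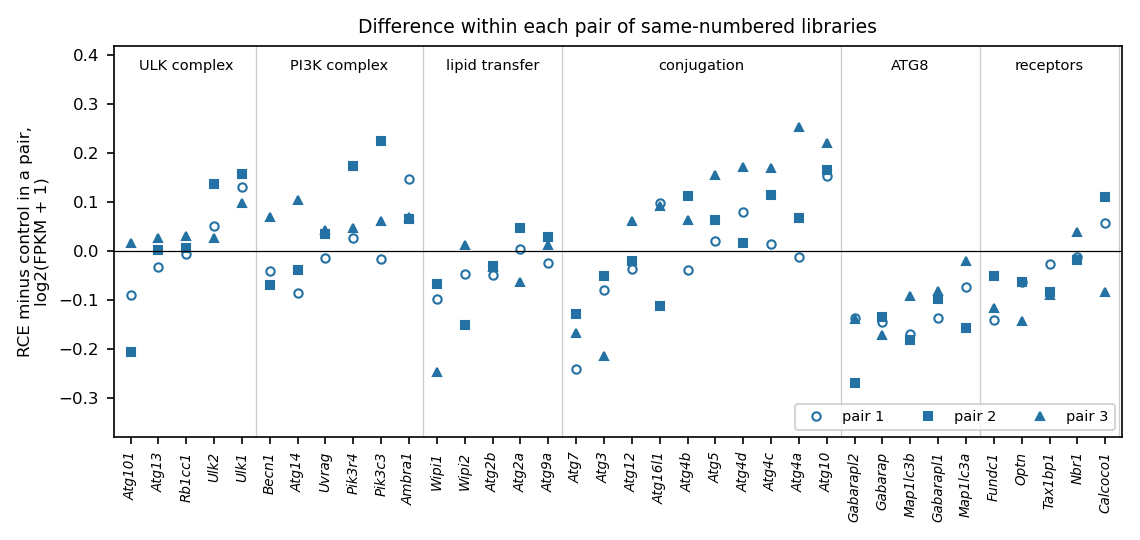
Difference between the RCE and the control library of the same number (y axis, log2(FPKM + 1)) for each gene (x axis, grouped by role); each symbol is 1 of the 3 pairs. The 5 ATG8 genes lie below 0 in all 3 pairs, and 0 genes of the ULK and PI3K complexes do. So do 3 of 5 receptors, 2 of 5 lipid transfer genes and 2 of 10 conjugation genes, beside 20.6% of all tested genes.

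Summed levels spread widely between roles. Each sum covers 5 genes, except 6 for the PI3K complex and 10 for conjugation. The order of the sums therefore depends in part on the number of genes and does not rank levels per gene. The order of role sums was the same in the 2 groups, with the ATG8 family at the top, at 449.7 ± 2.38 FPKM with the extract and 494 ± 2.41 FPKM in control, followed by receptors at 114 ± 2.10 and 117 ± 0.605 FPKM (SD, n = 3 each). Conjugation genes summed to 99.5 ± 4.94 and 100.01 ± 3.32 FPKM, lipid transfer genes to 81.8 ± 0.877 and 85.5 ± 0.58 FPKM, and the PI3K complex to 56.9 ± 3.59 and 55.4 ± 2.55 FPKM. The ULK complex had the lowest sum, at 55.2 ± 1.55 FPKM with the extract and 54.2 ± 1.8 FPKM in control. It did not differ from that of the PI3K complex beyond their spread. Replicate number separated many members more than the extract did. The gap between replicate 1 and the mean of replicates 2 and 3, averaged over both groups, was larger than the change with the extract for 25 of 36 genes (69.4%, and 48.5% of all tested genes). It was largest for Gabarapl2 (-0.60 in RCE and -0.67 in control on the log2 scale) and Ulk1 (0.41 in both groups).

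**Figure D4:**
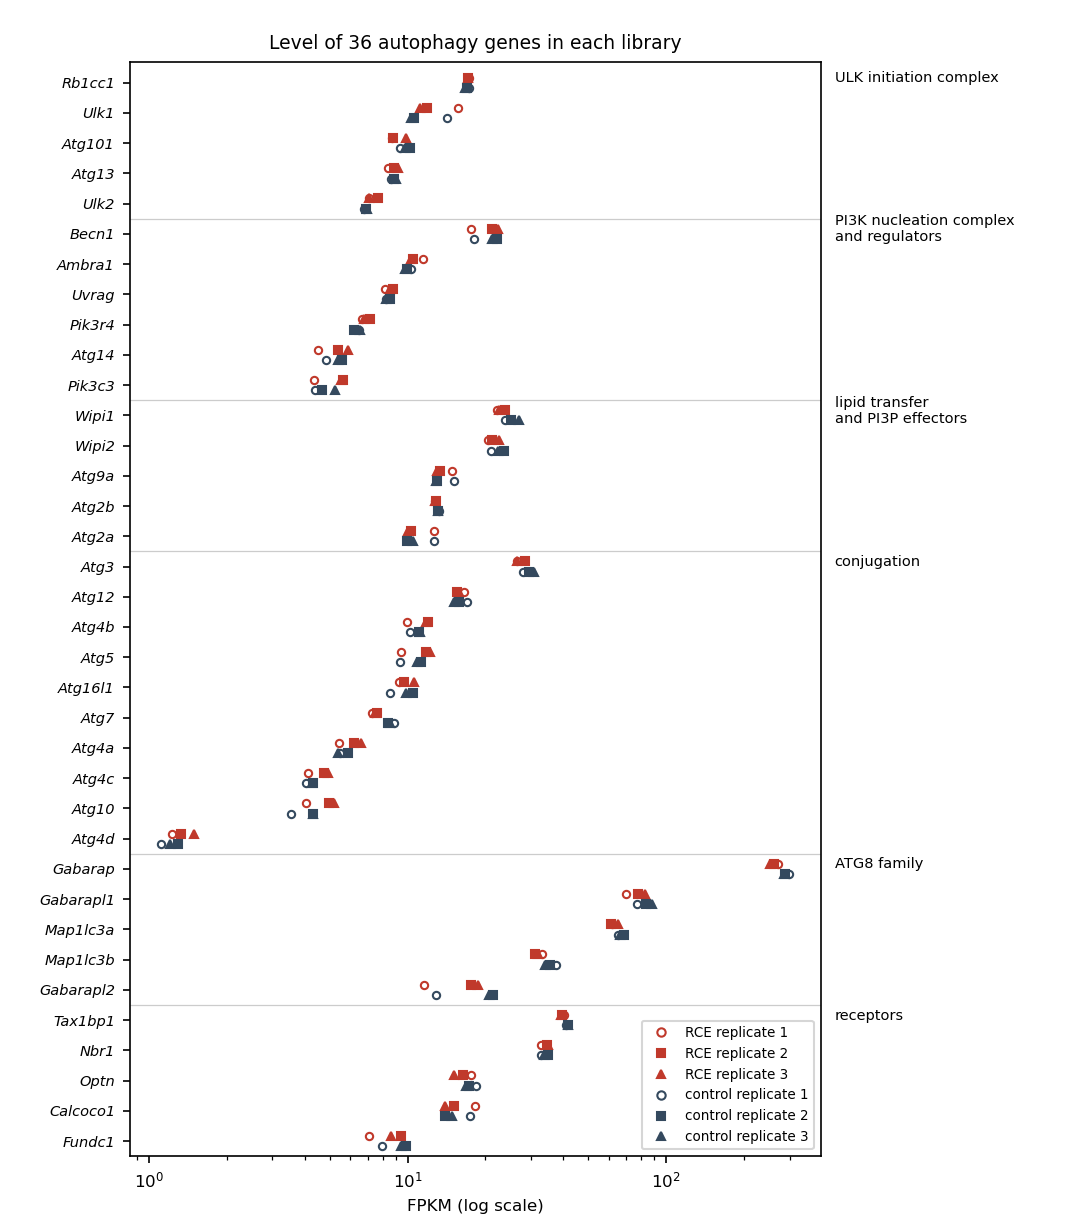
Level in FPKM (x axis, log scale) of each of the 36 genes in each library, grouped by role; red symbols (upper) are RCE and dark symbols (lower) are control, and open circles are the libraries numbered 1. Gabarap lies highest and Atg4d lowest, and open circles sit apart for Ulk1, Becn1, Atg5 and Gabarapl2.

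Around the core, 68 further genes of autophagy were listed by function: inputs from mTORC1 and AMPK, transcription factors, other early machinery, fusion factors and other receptors. Of the 65 that were tested, 10 rose and 4 fell, beside 17.6% and 6.77% of all genes. Their median change was 0.02. With the block 17 were higher and 14 lower, beside 46.6% and 15.9% of all genes. With median-of-ratios scaling 5 were higher and 8 lower, beside 8.5% and 10% of all genes. Counts were 3 higher and 2 lower without RCE replicate 2, beside 685 and 394 of all 10870 tested genes. They were 4 and 4 without RCE replicate 3, beside 899 and 461 of all genes. Without control replicate 2 they were 5 and 2, beside 909 and 446. Without control replicate 3 they were 4 and 2, beside 844 and 444.

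The largest changes of that list were those of Bnip3 and Ddit4, both also known as hypoxia targets. Bnip3, a receptor of mitophagy, the removal of mitochondria, fell to 8.44, 9.75 and 9.49 FPKM in RCE replicates 1, 2 and 3, against 28.3, 34.0 and 32.6 FPKM in control replicates 1, 2 and 3. The groups were far apart, with a control mean 3.43-fold that of RCE (log2 change -1.67, SE 0.08, adjusted p = 0.00013). Its paralogue Bnip3l (NIX) fell to 19.2 ± 1.59 FPKM with the extract, against 26.6 ± 2.33 FPKM in control (SD, n = 3 each, -0.45, adjusted p = 0.0137). The receptor members of the core, described above, did not pass the threshold.

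Among the inputs, Ddit4 (REDD1), an inhibitor of mTORC1, fell to 40.8 ± 4.68 FPKM with the extract, against 85.3 ± 13.4 FPKM in control (SD, n = 3 each, -1.04, adjusted p = 0.00422). Other inputs rose: Prkaa2, a catalytic subunit of AMPK (1.45-fold in mean FPKM, log2 change 0.28, adjusted p = 0.00363), Sesn1, a sestrin (1.33-fold, 0.27, adjusted p = 0.0189), Deptor, an mTOR inhibitor (1.28-fold, 0.23, adjusted p = 0.0184), and Mlst8, a subunit of mTOR complexes (1.17-fold, 0.20, adjusted p = 0.0298). Prkaa2 and Sesn1 were low, at 1.37 and 2.12 FPKM in RCE and 0.951 and 1.58 FPKM in control, where the added 1 FPKM shrinks the log2 change: with a pseudocount of 0.1 it was 0.49 for Prkaa2.

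In the early machinery and in fusion, Atg16l2, a paralogue of Atg16l1, rose to 1.62, 1.71 and 1.77 FPKM in RCE replicates 1, 2 and 3, against 1.022, 1.06 and 1.08 FPKM in control replicates 1, 2 and 3 (0.40, adjusted p = 0.00161). Stx17, the SNARE protein that drives fusion with the lysosome, rose to 5.67 ± 0.18 FPKM, against 4.35 ± 0.18 FPKM in control (SD, n = 3 each, 0.32, adjusted p = 0.00526). Rubcn (Rubicon), an inhibitor of autophagosome maturation, rose (0.21, adjusted p = 0.0161), as did Zkscan3, a zinc-finger repressor of autophagy genes (0.25, adjusted p = 0.0082). Tmem41b, an ER scramblase, fell (-0.31, adjusted p = 0.0141). Calls of Bnip3, Ddit4, Prkaa2, Atg16l2 and Stx17 held in every alternative in which they were tested. Median-of-ratios scaling ended the calls of Rubcn, Deptor and Mlst8 (adjusted p = 0.114, 0.0638 and 0.154). Quantile normalization ended those of Rubcn, Deptor, Mlst8 and Sesn1 (adjusted p = 0.0762, 0.159, 0.193 and 0.119). Leaving out RCE replicate 2 ended the calls of Bnip3l, Tmem41b and Zkscan3 (adjusted p = 0.0527, 0.0642 and 0.0513) and of Rubcn, Deptor, Sesn1 and Mlst8 (0.0788, 0.0765, 0.0792 and 0.0933). Without control replicate 2 the calls of Bnip3l, Tmem41b, Rubcn, Sesn1 and Mlst8 ended (adjusted p = 0.057, 0.0562, 0.0686, 0.0678 and 0.0698). Without control replicate 3 those of Bnip3l, Tmem41b, Rubcn, Deptor, Sesn1 and Mlst8 ended (adjusted p = 0.0576, 0.0608, 0.0566, 0.0503, 0.0547 and 0.0892). Without RCE replicate 3 those of Rubcn, Deptor, Sesn1 and Mlst8 ended (adjusted p = 0.0504, 0.0646, 0.0715 and 0.094), and without RCE replicate 1 that of Mlst8 (0.0572).

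**Figure D5:**
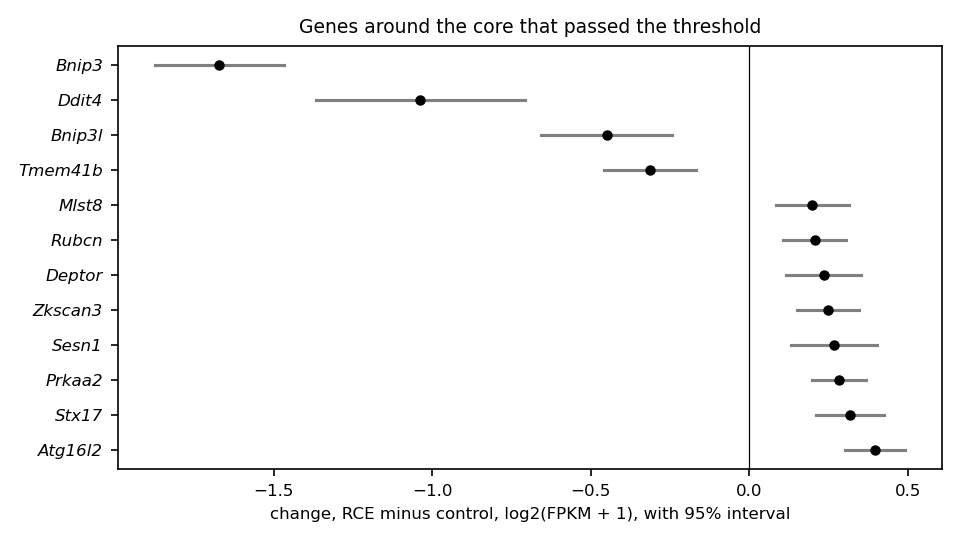
Change (x axis: RCE minus control, log2(FPKM + 1)) with its 95% interval for the 12 genes with the smallest p among those of the further list past the threshold. Bnip3 and Ddit4 lie at -1.67 and -1.04, and the genes that rose lie between 0.20 and 0.40.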

How the data were processed

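Messenger RNA libraries were made with a stranded kit, per the labels' protocols. The authors' deposited table gives 1 FPKM value per gene and library, with the unit read from the submitters' processing notes and the values. Those notes name STAR 2.5.4, Cufflinks, Cuffdiff 2.2.1 and the build mm10. The annotation, the filters and whether counting used strand are not given in the sources used here; exons of 11 members overlap a gene on the opposite strand in GENCODE M21, Map1lc3b, Gabarapl1, Becn1, Tax1bp1 and Optn among them. FPKM are relative to the library, so a transcript taking a larger share lowers the others.

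Log2(FPKM + 1) values were fitted in R 4.3.3 by limma 3.58.1 with its intensity trend, keeping genes that averaged 1 FPKM or more, with 2-sided tests and Benjamini-Hochberg adjustment over all of them at 0.05. Log2 changes on this scale understate the change of low genes, while folds in mean FPKM carry no added 1 FPKM. The script was tested on simulated data. Depth was the number of fragments at which values of 0.02 to 0.5 FPKM of genes with 1 transcript of at most 2000 bases came out whole within 0.1, which held for 100% of 360 to 388 values per library. Depth says nothing of errors beyond counting, as PCR copies are not independent molecules. The submitters' replicate numbers are shared by the groups. Across genes, the deviation of a library from its group mean correlated with that of its namesake (0.92, 0.62 and 0.68 for numbers 1, 2 and 3). The crossed combinations of numbers 2 and 3 gave higher values, 0.72 and 0.77. Libraries of 1 number are treated as a pair because all 3 same-number values exceed 0.1. That criterion cannot show that numbers 2 and 3 pair, since both libraries numbered 1 stood apart and the crossed values are higher. The pairing is thus an assumption, and the blocked value, given where it changes a call, rests on it.

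The members and lists were chosen with earlier results of these data known. The text names members by a rule: those past the threshold and Becn1, Atg5, Atg7, Map1lc3b and Ulk1 with the value in every library, all others by their change, and the 12 genes of the further list with the smallest p among those past the threshold. Values in every library of other members were added after they were seen. Alternatives were pseudocounts of 0.1 and 0.5, no filter, a higher filter of 5 FPKM, scaling by median of ratios, quantile normalization, omitting the trend, array weights, the block, and libraries left out.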

Additional observations from a re-analysis of the deposited data

How the results depend on the processing

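Atg7 kept its direction in every alternative run. Calls of the 36 members numbered 0 or 1 lower without any 1 library, and the further list 3 to 8 higher and 2 to 4 lower. Over all genes, 685 to 2040 rose and 394 to 734 fell without any 1 library, and 1910 rose and 736 fell with all 6. With the replicate block, 3 members were higher and 10 lower, 5 of them ATG8 genes; in the further list 17 were higher and 14 lower, and of all genes 5060 and 1730. Median-of-ratios scaling gave 7 members lower (3 ATG8 genes), 5 further genes higher and 8 lower, and a member median of -0.080. Of all genes, 924 were higher and 1090 lower with it. The block and this scaling together gave 1 member higher and 18 lower (5 ATG8 genes), and 9 further genes higher and 30 lower. Of all genes, 2875 were then higher and 2996 lower, and the member median was the same -0.080. Array weights, whose estimation stopped before its tolerance was reached, gave 9 members higher and 9 lower (4 ATG8 genes), 21 and 16 further genes, and 5047 and 1731 of all genes. Quantile normalization gave 4 further genes higher and 5 lower, 792 of all genes higher and 853 lower, and a median of -0.055. A mean of at least 5 FPKM left fewer genes to test and gave 5 further genes higher and 4 lower, and 867 and 485 of all genes. Without both libraries numbered 1, 5 members were higher and 7 lower (3 ATG8 genes), with 14 further genes higher and 12 lower. Of all genes, 4364 were then higher and 1480 lower. The cause of these differences was not tested.

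Gabarapl2 and Ulk1, at -0.18 and 0.13 with all 6 libraries and no block, turned sign without RCE replicate 1. Changes nearer 0 of other members not called there turned sign too. With median-of-ratios scaling, with or without the block, they were Ulk2 (-0.0041), Rb1cc1 (-0.071), Uvrag (-0.056), Atg9a (-0.075), Atg4b (-0.033), Atg12 (-0.080), Atg16l1 (-0.053), Nbr1 (-0.080) and Calcoco1 (-0.053); with the block as well, Rb1cc1, Atg12 and Nbr1 were called lower (limma adjusted p = 0.0488, 0.0468 and 0.0263). With quantile normalization they were Ulk2 (-0.015), Rb1cc1 (-0.026), Pik3c3 (-0.0098), Pik3r4 (-0.0088), Uvrag (-0.059), Atg9a (-0.042), Atg4b (-0.016), Atg4c (-0.0027), Atg4d (-0.015), Atg12 (-0.034), Atg16l1 (-0.051), Nbr1 (-0.016) and Calcoco1 (-0.013). Array weights turned Atg16l1 (-0.056), and leaving out both libraries numbered 1 turned Atg13 (0.014), Atg14 (0.033) and Atg16l1 (-0.011). Without any 1 library the changes ranged over -0.0077 to 0.26 for Ulk1, -0.0011 to 0.022 for Rb1cc1, -0.029 to 0.030 for Atg13, -0.097 to 0.082 for Becn1, -0.078 to 0.084 for Atg14, -0.00029 to 0.045 for Uvrag, -0.10 to 0.090 for Atg2a, -0.048 to 0.074 for Atg9a, -0.0014 to 0.12 for Atg4b, -0.036 to 0.044 for Atg12, -0.049 to 0.084 for Atg16l1, -0.41 to 0.019 for Gabarapl2, -0.017 to 0.031 for Nbr1 and -0.074 to 0.11 for Calcoco1.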

Other observations

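Of the further list of autophagy genes, 3 were below the filter and were not tested. Tfeb, the transcription factor of lysosome and autophagy genes, was at 1.022, 0.974 and 0.88 FPKM in RCE replicates 1, 2 and 3, against 0.571, 0.54 and 0.455 FPKM in control replicates 1, 2 and 3. When the filter was dropped and 17334 genes were tested, its log2 change was 0.36 (SE 0.04, limma adjusted p = 0.00467). At such low levels the added 1 FPKM shrinks the log2 change: the mean FPKM of Tfeb in RCE was 1.84-fold that of control. Calcoco2 was at no more than 0.021 FPKM in any library.

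Sqstm1, which encodes the receptor p62 and is also an NRF2 target, is named here after its values were seen. It was the most abundant receptor of the further list, at 1067, 1105 and 1165 FPKM in RCE replicates 1, 2 and 3, against 988, 1039 and 1004 FPKM in control replicates 1, 2 and 3. Every RCE library was above every control library, and the gene did not pass the threshold (log2 change 0.14, limma adjusted p = 0.136, and 0.013 with the replicate block), and median-of-ratios scaling left a log2 change of 0.052 (adjusted p = 0.579).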
